A study of Homo sapiens with 14 samples.

Results

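The 10 genes described here encode feedback regulators and output genes of the mitogen-activated protein kinase (MAPK) pathway that runs from RAS through RAF and MEK to ERK: the phosphatases DUSP4, DUSP5 and DUSP6, the inhibitors SPRY2, SPRY4, SPRED1 and SPRED2, the transcription factors ETV4 and ETV5, and PHLDA1. Members were the probe sets annotated with exactly 1 of these symbols, and each symbol had 1 such probe set, so 10 of the 18372 genes tested are described.

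The series measured total RNA of 7 human prostate cancer cell lines on 14 single-colour arrays, 2 arrays per line from different passages, and its title asks how lines that form bone metastases differ from lines that do not. PC3 and DU-145 are established lines from metastases of prostate cancer. PC3-N, labelled not bone metastatic, and PC3-ML, labelled bone metastatic, are unmodified sublines of the PC3 line. The lines called Clone 1 and Clone 3 here are labelled PC3-ML (Clone 1) and PC3-ML (Clone 3), were each grown from a single PC3-ML cell and are labelled bone metastatic. The alpha receptor for platelet-derived growth factor, PDGFRα, is overexpressed in PC3-N(PDGFRα) and also in DU-145 (PDGFRα), with the construct and its promoter not given in the sources used here. Of these lines, the first is labelled bone metastatic, whereas the second and DU-145 itself are labelled not bone metastatic. The culture medium, DMEM, held 10% fetal bovine serum and an antibiotic for each line, and no added ligand or inhibitor is named. None of the 7 lines is labelled as a vector control, so overexpression of the receptor and the making of the line cannot be told apart. Each line was sampled at 2 passages.

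When a growth factor activates its receptor tyrosine kinase, RAS, RAF, MEK and ERK pass the signal on, and ERK induces genes that dampen it again. Dual-specificity phosphatases (DUSP) remove phosphate from ERK and related kinases, Sprouty (SPRY) proteins block signalling between the receptor and RAF, and Sprouty-related (SPRED) proteins bring the RAS inactivator neurofibromin to the membrane. ETV4 and ETV5 are ETS transcription factors of the PEA3 group, and their transcripts, like that of PHLDA1, rise with ERK output in many epithelial cancers. The transcripts of such genes are therefore often read as a measure of pathway output, but these arrays measured no phosphorylated ERK.

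Values are deposited RMA intensities, a linear brightness per probe set, and differences are given on the log2 scale with the standard error (SE) of the limma fit. A gene was called where limma gave it an adjusted p (Benjamini-Hochberg, all 18372 genes) under 0.05. Array medians lay between 29.9 and 31.6, and values near them are compressed, so that a fold against such a level is a low estimate. This holds for DUSP4, DUSP6, ETV4 and SPRY4 in the DU-145 lines. PDGFRA, which encodes the overexpressed receptor, read 817 and 850 in PC3-N(PDGFRα) against 103 and 109 in its parent PC3-N. It read 130 and 92.2 in DU-145 (PDGFRα) against 28.2 and 25.5 in its parent DU-145. CTNNA1, which PC3 cells are known to lack, read 22.3 to 24.9 on the 10 arrays of PC3 origin and 138 to 282 on the 4 of DU-145 origin. Of 5 epithelial markers, KRT8, KRT19 and EPCAM were at 207 or above on every array, and KRT18 read 36.3 to 309. CDH1 read 25.0 to 33.9 on the PC3 arrays and 43.6 to 250 on the DU-145 arrays. The prostate luminal genes KLK2 and KLK3 did not exceed 33.9. Of 10 measured markers of leukocytes, endothelium and fibroblasts, PTPRC, CD3E, VWF, CDH5, DCN and LUM stayed at or below 25.5 on every array. The other 4 read higher, with CD14 at 24.6 to 30.9, COL3A1 at 28.0 to 31.7, COL1A1 at 44.0 to 51.8 and PECAM1 at 20.7 to 105.

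All 10 members differed among the 7 lines by the F test of limma, against 38.0% of all genes tested. Of the 10517 genes left by a filter on dim genes, which kept the members, 6824 were called. The members were chosen with earlier results of these data known, so their count is a description. Their line means spanned a median of 1.15 on the log2 scale, against 0.31 over all genes, and 7 of the 10 spanned at least 1, as did 11.8% of genes. These shares over all genes include the dim genes that the filter removed, and the span over the genes left is not given here. Members and all genes are thus not matched for brightness. SPRED1 had the widest range, 2.35 or 5.11-fold, followed by SPRY4 with 1.52, ETV4 with 1.33, DUSP6 with 1.32, SPRED2 with 1.26, DUSP4 with 1.05 and PHLDA1 with 1.03. SPRY2 spanned 0.76, ETV5 0.62 and DUSP5 0.42. The adjusted p was lowest for DUSP4 (1.12e-05) and SPRED1 (1.13e-05) and highest for DUSP5 (0.0211) and SPRY2 (0.0360). Leaving out single arrays left 8 to 10 members called, and the calls lost were those of SPRY2 and DUSP5. SPRY2 was not called after quantile normalization either (adjusted p = 0.0584). For 9 members the lowest line mean was that of a DU-145 line, the exception being ETV5, which was lowest in Clone 3.

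**Figure D1:**
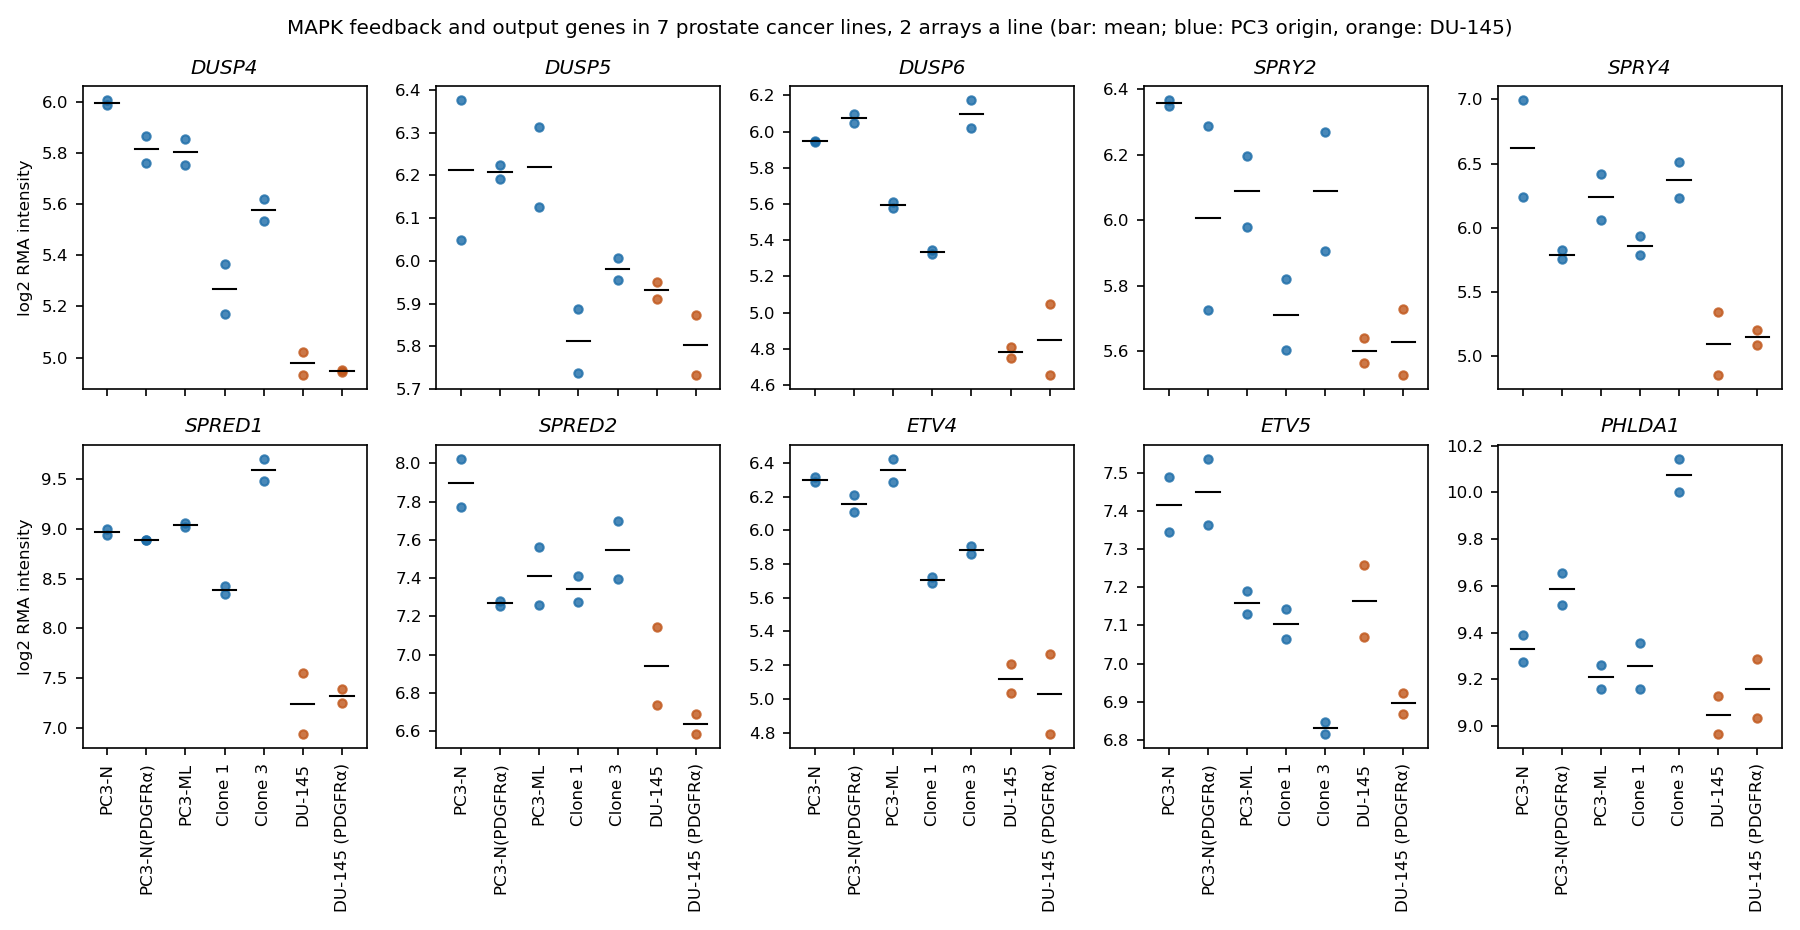
Log2 RMA intensity (vertical axis, scaled per gene) of the 10 members in the 7 lines, 1 dot per array and a bar at the mean of the 2 arrays, with lines of PC3 origin in blue and of DU-145 origin in orange. DUSP4, DUSP6, SPRY4, SPRED1, SPRED2 and ETV4 show no overlap between the 10 blue and the 4 orange dots.

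**Figure D2:**
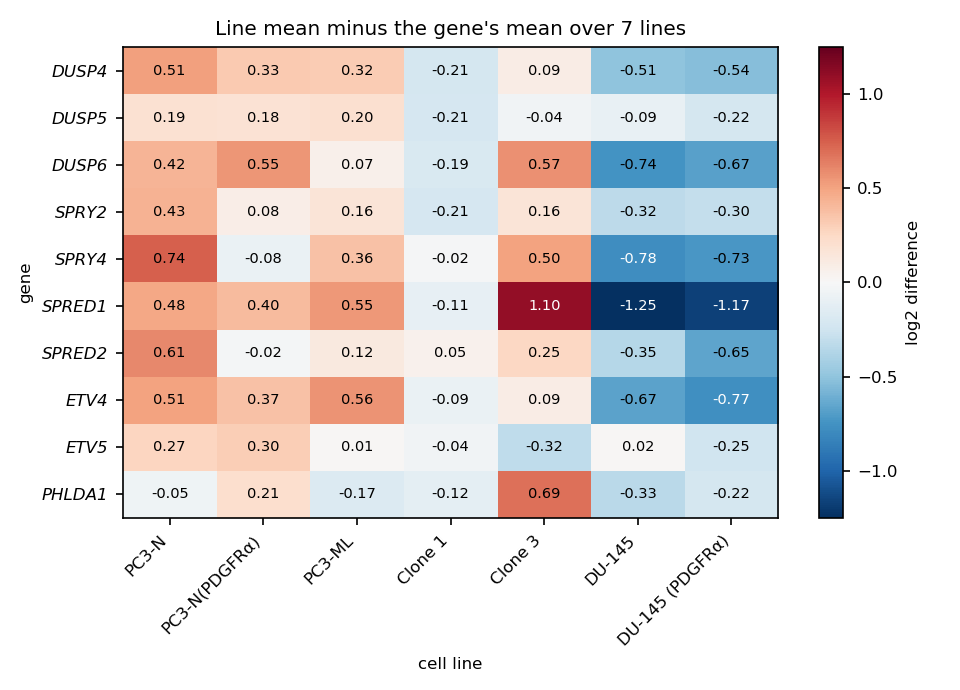
Mean log2 intensity of each line (columns) minus the mean over the 7 lines for the same gene (rows), printed in each cell and coloured from blue (lower) to red (higher). The columns of DU-145 and DU-145 (PDGFRα) are negative for all members except ETV5 in DU-145 at 0.02, and Clone 3 holds the highest cell of SPRED1 and PHLDA1.

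DUSP6, a cytoplasmic phosphatase that acts on ERK, read 61.6 and 61.7 in PC3-N, 68.5 and 66.2 in PC3-N(PDGFRα), 47.7 and 48.8 in PC3-ML, 40.1 and 40.7 in Clone 1, 72.3 and 64.8 in Clone 3, 26.9 and 28.1 in DU-145 and 25.2 and 33.1 in DU-145 (PDGFRα). Its levels were highest in Clone 3 and PC3-N(PDGFRα), lower in PC3-ML and Clone 1, and near the array median in both DU-145 lines. DUSP4, a nuclear phosphatase of ERK, JNK and p38, read 63.4 and 64.4 in PC3-N, 54.3 and 58.4 in PC3-N(PDGFRα), 57.8 and 53.9 in PC3-ML, 41.3 and 36.0 in Clone 1, 49.2 and 46.4 in Clone 3, 30.5 and 32.5 in DU-145 and 30.8 and 30.9 in DU-145 (PDGFRα). The PC3-N arrays were the highest and Clone 1 was the lowest of the PC3 origin, without overlap with Clone 3. DUSP5, a nuclear phosphatase of ERK, lay at 53.4 to 83.1 on the PC3 arrays (median 68.0) and at 53.2 to 61.8 on the DU-145 arrays (median 59.4). The origins overlapped for DUSP5, with the Clone 1 arrays, at 59.2 and 53.4, inside the DU-145 range.

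Among the inhibitors that act upstream of RAF, SPRED1 read 491 and 513 in PC3-N, 474 and 474 in PC3-N(PDGFRα), 533 and 518 in PC3-ML, 326 and 344 in Clone 1, 836 and 715 in Clone 3, 122 and 187 in DU-145 and 153 and 168 in DU-145 (PDGFRα). Every PC3 array lay above every DU-145 array, and both Clone 3 arrays lay above all others. SPRED2, the second member of that family, read 260.2 and 218 in PC3-N, 156 and 153 in PC3-N(PDGFRα), 153 and 189 in PC3-ML, 155 and 170.2 in Clone 1, 207 and 169 in Clone 3, 141 and 107 in DU-145 and 103 and 96.0 in DU-145 (PDGFRα). The PC3-N arrays were the highest and did not overlap with any other line, while the 2 DU-145 arrays differed from each other by more than the DU-145 (PDGFRα) arrays did. SPRY4 read 128 and 75.7 in PC3-N, 56.8 and 54.0 in PC3-N(PDGFRα), 66.8 and 85.5 in PC3-ML, 55.1 and 61.1 in Clone 1, 91.4 and 75.2 in Clone 3, 28.9 and 40.5 in DU-145 and 34.1 and 36.8 in DU-145 (PDGFRα). Its passages disagreed most in PC3-N and in DU-145, and its between-passage SD of 0.27 on the log2 scale was the largest of the 10 members. SPRY2 lay at 48.7 to 82.5 on the PC3 arrays (median 68.2) and at 46.1 to 53.1 on the DU-145 arrays (median 48.6), with Clone 1 replicate 2 and PC3-N(PDGFRα) replicate 2 inside the DU-145 range.

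Of the output genes, ETV4 read 79.6 and 77.9 in PC3-N, 69.1 and 73.9 in PC3-N(PDGFRα), 85.9 and 78.1 in PC3-ML, 51.6 and 52.9 in Clone 1, 59.9 and 58.1 in Clone 3, 36.9 and 32.8 in DU-145 and 38.4 and 27.7 in DU-145 (PDGFRα). PC3-ML, PC3-N and PC3-N(PDGFRα) formed the upper levels, both clones lay between them and the DU-145 lines, and none of the arrays of these 3 levels overlapped. PHLDA1, a growth-factor-induced protein with a pleckstrin homology-like domain, read 671 and 619 in PC3-N, 806 and 733 in PC3-N(PDGFRα), 571 and 614 in PC3-ML, 572 and 656 in Clone 1, 1025 and 1131 in Clone 3, 499.9 and 559 in DU-145 and 624 and 524 in DU-145 (PDGFRα). Only the Clone 3 arrays exceeded 806, and both PC3-N(PDGFRα) arrays also lay above all 4 of DU-145 origin, the highest of which was at 624. The arrays of PC3-ML, PC3-N and Clone 1, at 571 to 671, overlapped with those of DU-145 origin. ETV5 lay at 113 to 186 on the PC3 arrays (median 144) and at 117 to 153 on the DU-145 arrays (median 128). Its highest arrays were those of PC3-N(PDGFRα) and PC3-N and its lowest those of Clone 3, so that ETV4 and ETV5 did not follow the same order of lines.

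Neighbours in these orders seldom differed beyond the spread between passages. With all 21 pairs of lines tested, neighbouring lines differed for DUSP4 between Clone 3 and Clone 1 (0.31, adjusted p = 0.0265) and between Clone 1 and DU-145 (0.29, 0.0150). They differed for DUSP6 between Clone 1 and DU-145 (PDGFRα) (0.49, 0.00586), for SPRED1 between the same lines (1.06, 0.000589), for ETV4 between Clone 1 and DU-145 and for PHLDA1 between Clone 3 and PC3-N(PDGFRα). No neighbours differed for DUSP5, SPRY2, SPRY4, SPRED2 or ETV5.

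All 10 members were higher in the 5 lines of PC3 origin than in the 2 of DU-145 origin, against 22.3% of all genes called higher, 16.5% called lower and 38.8% called in either direction. With the filter on dim genes, 6303 of 10517 genes were called in either direction. Because the members were picked with earlier results of these data known, their count is no independent support. Their median difference was 0.72 on the log2 scale, and that of all genes was -0.01. SPRED1 differed most, by 1.69 (SE 0.09, 3.24-fold, adjusted p = 3.6e-07). SPRY4 followed with 1.05 (SE 0.14, adjusted p = 0.00016), ETV4 with 1.01 (SE 0.08, 2.8e-06) and DUSP6 with 0.99 (SE 0.06, 9.08e-07). DUSP4 was higher by 0.73 (SE 0.04) and SPRED2 by 0.71 (SE 0.09). The differences of SPRY2 (0.43), PHLDA1 (0.39), DUSP5 (0.22) and ETV5 (0.16) were smaller, and their arrays overlapped between the origins. The arrays of the other 6 members did not overlap, as for 10.1% of all genes with the PC3 arrays higher.

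These p-values measure the difference against the spread between passages, and the 7 lines stem from 2 tumours. With the lines in place of the passages as replicates, limma called 3241 of all 18372 genes. Of the 10 members 6 remained called (DUSP4, DUSP6, SPRY4, SPRED1, SPRED2 and ETV4). Lines of the same origin are not independent, so this test does not measure the spread between tumours either. The adjusted p rose to 0.107 for SPRY2, 0.296 for DUSP5, 0.323 for PHLDA1 and 0.599 for ETV5. Without both PDGFRα lines, ETV5 was no longer higher (-0.036, adjusted p = 0.766) and DUSP5 did not pass (0.13, 0.336). DUSP5 and ETV5 also did not pass without DU-145 replicate 2 (0.21 and 0.12) and after quantile normalization (0.10 and 0.03), and ETV5 did not pass with an intensity trend in the limma prior (adjusted p = 0.0796). Without DU-145 (PDGFRα) replicate 1 the adjusted p of ETV5 was 0.0791, and without its replicate 2 that of DUSP5 was 0.0896. Over all alternatives run, the adjusted p ranged from 0.00297 to 0.336 for DUSP5, 0.00975 to 0.766 for ETV5, 0.00119 to 0.107 for SPRY2 and 0.000153 to 0.323 for PHLDA1. In bulk RNA, fewer cells that express a gene and less RNA per cell cannot be told apart.

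In each of the 10 pairs of a PC3 line with a DU-145 line, 5 to 9 members were called, against 20.8% to 30.8% of all genes. Against DU-145, 5 members were called in PC3-ML (20.8% of all genes), 5 in Clone 1 (27.1%), 6 in PC3-N(PDGFRα) (21.2%), 7 in PC3-N (23.5%) and 8 in Clone 3 (26.0%). Against DU-145 (PDGFRα), 6 were called in Clone 1 (30.8%), 7 in Clone 3 (29.6%), 8 in PC3-ML (23.2%), 8 in PC3-N(PDGFRα) (24.7%) and 9 in PC3-N (27.8%). DUSP4, DUSP6, SPRED1 and ETV4 were called in all 10 pairs, SPRY4 in 8, SPRED2 in 7, ETV5 in 5, PHLDA1 in 4, DUSP5 in 3 and SPRY2 in 2. The pairs share arrays, so these counts are not independent. The share of all genes called in as many pairs is not given here, so the counts only describe the members. The only member called lower in a PC3 line in these pairs was ETV5 in Clone 3 against DU-145.

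Within an origin, 0 to 8 members were called in the 11 pairs, against 0.310% to 13.8% of all genes. The 8 belonged to Clone 1 against PC3-N (13.1% of all genes). Against PC3-N(PDGFRα), Clone 1 had 5 called, all lower (11.6%), namely DUSP4, DUSP5, DUSP6, ETV4 and ETV5, and Clone 3 had 3 (9.25%), with SPRED1 and PHLDA1 higher and ETV5 lower. Clone 3 against PC3-N had 4 (6.86%), with SPRED1 and PHLDA1 higher and DUSP4 and ETV5 lower. PC3-ML against PC3-N(PDGFRα) had 0 (1.10%). SPRY4 was called in none of the 10 pairs of PC3 lines.

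**Figure D3:**
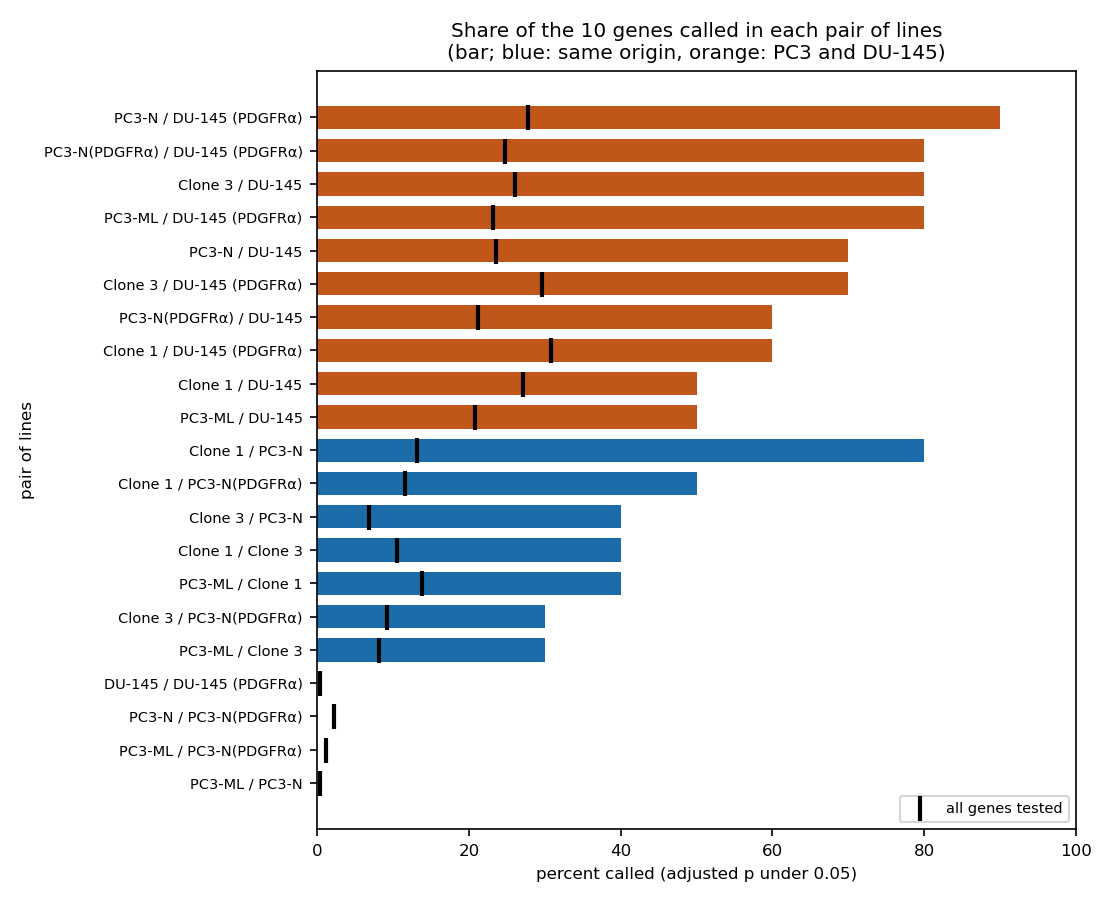
Percent of the 10 members called (bar, adjusted p under 0.05 in limma) in each of the 21 pairs of lines, with a black mark at the percent of all genes called in that pair. Pairs across origins (orange) reach 5 to 9 members, and 4 pairs within an origin (blue) have none.

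The promoters of members that moved together across origins were read from RefSeq, where 6 members had an entry of GRCh38.p14 (SPRED1, SPRED2, SPRY2, SPRY4, DUSP6 and PHLDA1). The 250 bases before the start of transcription are shown for DUSP6 and SPRED1, which had the largest differences between the origins among members with an entry at the outermost start of the gene, and for SPRY2 and PHLDA1, which held a match to an ETS motif. The windows lie at chr12:89352502-89352751 on the minus strand for DUSP6, chr15:38252586-38252835 on the plus strand for SPRED1, chr13:80341127-80341376 on the minus strand for SPRY2 and chr12:76031777-76032026 on the minus strand for PHLDA1. Each is written from 5′ to 3′ in the direction of transcription, with motif matches in capitals.
DUSP6: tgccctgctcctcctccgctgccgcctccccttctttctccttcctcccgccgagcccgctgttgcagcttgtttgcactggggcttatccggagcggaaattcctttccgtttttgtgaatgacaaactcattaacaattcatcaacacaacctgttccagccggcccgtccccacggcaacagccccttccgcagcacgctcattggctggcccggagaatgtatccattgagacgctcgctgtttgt
SPRED1: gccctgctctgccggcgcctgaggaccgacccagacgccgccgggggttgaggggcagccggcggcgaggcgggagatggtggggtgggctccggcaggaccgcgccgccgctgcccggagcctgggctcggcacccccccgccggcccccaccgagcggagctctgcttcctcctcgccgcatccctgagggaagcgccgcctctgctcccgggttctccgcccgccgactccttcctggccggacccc
SPRY2: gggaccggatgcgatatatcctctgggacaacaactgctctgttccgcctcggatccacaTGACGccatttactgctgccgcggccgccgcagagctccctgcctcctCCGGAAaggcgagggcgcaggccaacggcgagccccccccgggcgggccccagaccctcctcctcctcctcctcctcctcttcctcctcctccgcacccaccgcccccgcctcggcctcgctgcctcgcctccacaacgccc
PHLDA1: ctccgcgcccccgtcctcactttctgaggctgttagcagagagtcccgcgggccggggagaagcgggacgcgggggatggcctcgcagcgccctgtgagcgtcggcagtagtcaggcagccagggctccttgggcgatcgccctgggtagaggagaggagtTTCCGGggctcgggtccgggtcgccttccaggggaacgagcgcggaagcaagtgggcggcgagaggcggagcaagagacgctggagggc

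Both strands were searched for the core of PEA3-type ETS sites, CCGGAA, for the AP-1 site, TGANTCA, and for the core of the cyclic AMP response element, TGACG. The ETS core stood in the window of SPRY2 and, as TTCCGG on the strand shown, in that of PHLDA1, and in 14.5% of all 35116 promoter windows of this length. TGACG stood in SPRY2 and in a window of SPRY4 that begins inside the gene, against 21.2% of all windows, and the pair of matches in SPRY2 did not overlap. The AP-1 site stood in none of the 9 windows of these 6 genes, against 6.57%. The windows of DUSP6 and SPRED1 held none of the 3 motifs. DUSP4, DUSP5, ETV4 and ETV5 are named without a sequence.

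The other genes of the pathway did not all share the direction of the members. For the counts below, the shares over all genes are 22.3% called higher and 16.5% called lower in the PC3 lines. Of 10 further ERK output genes, 6 were higher in the PC3 lines and 1 was lower (median 0.39). ETV1, the remaining PEA3-group factor, was higher by 2.66, TRIB1, a pseudokinase, by 0.96, and the cyclin gene CCND1 by 0.75, whereas EGR1, an immediate early factor, was lower (-1.09). Of 9 further feedback inhibitors, 2 were higher and 4 lower (median -0.05). SPRY1 was higher by 1.41 and PEBP1, which binds RAF, by 0.18, while NF1, the neurofibromin that SPRED proteins recruit, was lower (-0.64) and LRIG1 was lower by a small amount (-0.15). Of 7 further MAP kinase phosphatases, 2 were higher, the ERK phosphatase DUSP7 (0.52) and DUSP16 (0.36), and 1 was lower, DUSP1 (-0.53). Of 11 measured genes of the cascade from adaptor to kinase, 6 were higher, among them ARAF (0.76) and HRAS (0.73), and the adaptor SHC1 (-1.08) and the exchange factor SOS2 (-1.06) were lower. Among 11 receptor tyrosine kinases, PDGFRA (1.29) and MET (0.87) were higher, and 3 were lower, IGF1R the most (-2.51) and FGFR1 next (-0.27). Each origin holds a line made to overexpress PDGFRA. The PDGFRA arrays overlapped, at 26.5 to 850 in the PC3 lines and 25.5 to 130 in the DU-145 lines. All these calls are by limma with the threshold given above.

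Markers of cell types were also compared between the origins. Of the 10 markers of leukocytes, endothelium and fibroblasts, 1 was called, against 38.8% of all genes, and 9 were not. The called marker, PECAM1, was higher in the PC3 lines (1.44, adjusted p = 1.83e-05 by limma). The summed level of the list was 269 to 337 on the PC3 arrays and 255 to 268 on the DU-145 arrays. Without PECAM1 it was 225 to 243 and 231 to 245. The other endothelial markers, VWF and CDH5, stayed at or below 25.5 in both. Of 5 epithelial markers, KRT19 was higher in the PC3 lines (0.68), and KRT8 (-0.96), EPCAM (-0.97) and CDH1 (-1.56) were lower. Their part in the difference of the members was not tested.

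**Figure D4:**
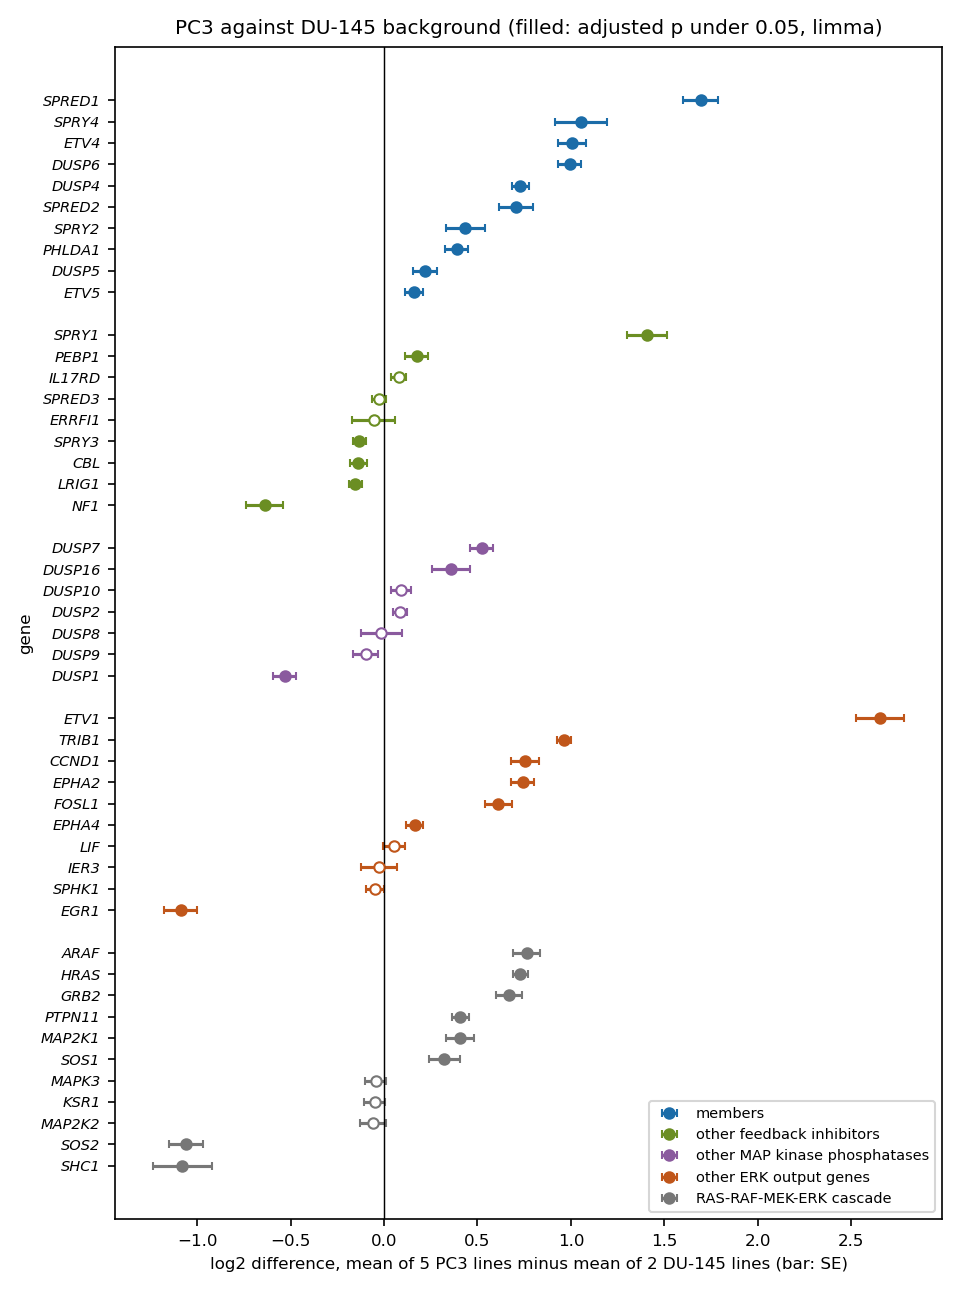
Mean log2 intensity of the 5 PC3 lines minus that of the 2 DU-145 lines (horizontal axis, bar: SE) for the 10 members and the genes of 4 further pathway lists, filled where limma called the gene. The 10 members all lie right of 0, from 0.16 for ETV5 to 1.69 for SPRED1, while the other lists hold genes on both sides.

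Whether the bone-metastatic label goes with these genes was tested on the 7 line means, 4 labelled bone metastatic and 3 not. None of the 10 members was called, nor was any of the 18372 genes (0.00%) by limma, and at an unadjusted p under 0.05 there were 0 members among 2250 genes, 12.2% of all. SPRED1 had the largest difference, 1.13 higher in the bone-metastatic lines with a 95% interval of -0.07 to 2.33 (adjusted p = 0.411). DUSP6 followed with 0.58 (-0.25 to 1.41) and ETV4 with 0.54 (-0.28 to 1.37), and every interval of the 10 members held 0. The line means of the groups overlapped for all 10 members, whereas those of 9.33% of all genes did not overlap. PC3 and DU-145 origin are spread unevenly over the label, with 4 of the 5 PC3 lines and 0 of the 2 DU-145 lines labelled bone metastatic. Within the PC3 lines alone, 0 members and 0 of all 18372 genes were called. There PC3-N was the only line without the label, so this test cannot tell the label from that line. PDGFRA differed by 1.05 (SE 1.16, adjusted p = 0.684) between lines with and without this label.

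PC3-ML against PC3-N compares a bone-metastatic with a non-bone-metastatic line of the same origin. None of the 10 members was called, against 0.348% of all genes, and 4 had an unadjusted p under 0.05, all lower in PC3-ML, against 10.5% of all genes in either direction and 6.32% lower. These were SPRED2 (-0.49, SE 0.16, adjusted p = 0.272), DUSP6 (-0.35, SE 0.11, 0.245), ETV5 (-0.26, SE 0.08, 0.272) and DUSP4 (-0.19, SE 0.07, 0.382). SPRED1 (0.07), ETV4 (0.06) and DUSP5 (0.01) had intervals around 0 that reach 0.42, 0.34 and 0.25. Of the further ERK output genes, EPHA4 was called lower in PC3-ML (-0.57, adjusted p = 0.0203), and of the epithelial markers KRT8 was (-1.075, 0.0308). PDGFRA differed by 0.26 (adjusted p = 0.766).

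Both PDGFRα lines were compared with their parents. In PC3-N(PDGFRα) 0 of the 10 members were called, against 2.20% of all genes, with PDGFRA itself higher by 2.97 (adjusted p = 8.03e-05). SPRY4 was lower by more than any other member, -0.83 with a 95% interval of -1.36 to -0.30 (adjusted p = 0.121), and SPRED2 followed with -0.63 (-0.97 to -0.28, 0.0770). The SPRY4 arrays, 56.8 and 54.0 against 128 and 75.7, and the SPRED2 arrays, 156 and 153 against 260.2 and 218, did not overlap. Without PC3-N replicate 2 the SPRY4 difference was -1.21 (adjusted p = 0.0235), and without PC3-N replicate 1 it was -0.45. A filter on dim genes, which left 10517 genes to adjust over, called SPRY4 (adjusted p = 0.0364) and SPRED2 (0.0287). SPRED2 was also called after quantile normalization (0.0308) and with an intensity trend (0.0432). Over all alternatives the adjusted p ranged from 0.0235 to 0.497 for SPRY4 and from 0.0287 to 0.340 for SPRED2. PHLDA1 was 0.25 higher (0.01 to 0.49, adjusted p = 0.328). Of the 9 further feedback inhibitors SPRY1 was called lower (-0.96, adjusted p = 0.0282), as were, of the 10 further output genes, CCND1 (-0.62, 0.0379) and EPHA4 (-0.48, 0.0162). The summed level of the 10 markers of other cell types was 310 to 337 in PC3-N(PDGFRα) and 276 to 291 in PC3-N. PECAM1 was at a difference of 0.77 (adjusted p = 0.153 by limma). The epithelial markers did not share a direction, and none was called. KRT8 (-0.58, adjusted p = 0.117 by limma), KRT18 (-0.87), KRT19 (-0.24) and CDH1 (-0.15) were lower, and EPCAM was higher (0.36, adjusted p = 0.206). Their part in the differences of the members was not tested.

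In DU-145 (PDGFRα) 0 of the 10 members were called, against 0.310% of all genes, with PDGFRA higher by 2.03 (adjusted p = 0.00454). ETV5 differed most clearly from its parent, -0.27 (-0.45 to -0.08, adjusted p = 0.199), and SPRED2 by -0.30 (-0.65 to 0.04). SPRY4 differed by 0.05 (-0.48 to 0.58). Of the cascade genes HRAS was called lower (-0.43, adjusted p = 0.0405). The difference between the PDGFRα effects of the 2 backgrounds was tested as an interaction, and 0 of the 10 members were called, against 0.533% of all genes. It was -0.88 for SPRY4 (-1.62 to -0.13, adjusted p = 0.313) and 0.30 for ETV5 (0.04 to 0.56, adjusted p = 0.319).

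**Figure D5:**
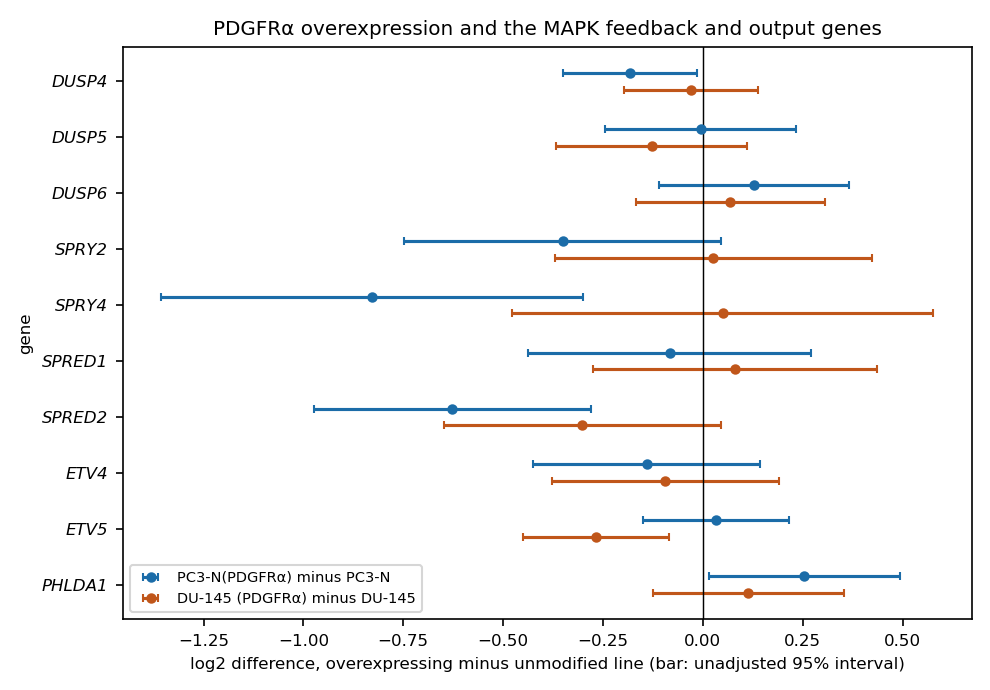
Log2 difference of each PDGFRα line from its parent (horizontal axis) for the 10 members, with bars for the unadjusted 95% interval, blue for PC3-N and orange for DU-145. The blue intervals of SPRY4 and SPRED2 and the orange interval of ETV5 lie farthest from 0, and 0 of the 10 members were called in either line.

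Both clones were compared with the same 2 arrays of their parent, PC3-ML. Clone 1 had 4 of the 10 members lower and none higher, against 4.77% of all genes called lower, 9.01% called higher and 13.8% in either direction. DUSP4 fell by 0.53 (SE 0.07, adjusted p = 0.00137), ETV4 by 0.65 (SE 0.13, 0.00791), SPRED1 by 0.65 (SE 0.16, 0.0227) and DUSP5 by 0.41 (SE 0.11, 0.0323). The arrays of the 2 lines did not overlap for any of these. SPRY2 (-0.38), SPRY4 (-0.38) and DUSP6 (-0.26) did not pass the test, and PHLDA1 was at 0.05. Leaving out PC3-ML replicate 1 left 1 call, DUSP4, and leaving out PC3-ML replicate 2, Clone 1 replicate 1 or Clone 1 replicate 2 left 2, DUSP4 and ETV4. Of the 9 further feedback inhibitors, SPRY1 (-0.83) and SPRED3 (-0.27) were called lower, and ERRFI1, which inhibits the epidermal growth factor receptor (0.88), and CBL, a ubiquitin ligase of such receptors (0.31), were called higher. Of the 10 further output genes TRIB1 (-0.58) was lower, and 0 of the 7 further phosphatases were called. Of the 11 cascade genes the exchange factor SOS1 (0.50) and the phosphatase PTPN11 (0.29) were higher, and of the 11 receptors EGFR was higher (0.48) and PDGFRA lower (-2.15). KRT8 (0.92), KRT18 (2.20) and EPCAM (1.81) and, of the 10 markers of other cell types, PECAM1 (1.03) were called higher too. The summed level of those 10 was 307 to 325 in Clone 1 and 279 to 286 in PC3-ML, and its part in the difference was not tested.

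Clone 3 had 2 members higher and 1 lower than PC3-ML, against 5.21% of all genes called higher, 2.90% called lower and 8.11% in either direction. PHLDA1 rose by 0.86 (SE 0.11, adjusted p = 0.00175), to 1025 and 1131 from 571 and 614. DUSP6 rose by 0.50 (SE 0.11, 0.0183) and ETV5 fell by 0.33 (SE 0.08, 0.0374). SPRED1, 0.56 higher (adjusted p = 0.0627), and ETV4, which differed by -0.47 (adjusted p = 0.0508), did not pass the threshold, and the filter on dim genes called both (0.0226 and 0.0245), as did the intensity trend, under which ETV5 was no longer called (adjusted p = 0.115). Over all alternatives the adjusted p reached 0.314 for SPRED1 and 0.290 for ETV4. Only PHLDA1 was called without PC3-ML replicate 1, without PC3-ML replicate 2 and without Clone 3 replicate 1, and PHLDA1 and DUSP6 were the 2 called without Clone 3 replicate 2. Of the 9 further feedback inhibitors SPRY1 (0.71) and CBL (0.31) were called higher, of the 11 cascade genes SOS1 (0.66), HRAS (0.40) and PTPN11 (0.32), and of the 11 receptors EGFR (0.52). None of the 10 further output genes or 7 further phosphatases was called, and PDGFRA differed by 0.0064 (adjusted p = 0.992).

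Between the clones themselves, 4 members were lower in Clone 1 and none higher, against 4.63% of all genes called lower, 5.85% called higher and 10.5% in either direction. SPRED1 differed by -1.21 (SE 0.16, adjusted p = 0.00124), PHLDA1 differed by -0.81 (SE 0.11, 0.00126), DUSP6 by -0.76 (SE 0.11, 0.00178) and DUSP4 by -0.31 (SE 0.07, 0.0265). DUSP4 was not called without Clone 1 replicate 2 (-0.21), Clone 3 replicate 1 (-0.27) or Clone 3 replicate 2 (-0.35), nor with the intensity trend (adjusted p = 0.0689), and the other 3 were called without any single array. SPRY1 (-1.54), ETV1 (-0.91), TRIB1 (-0.43), HRAS (-0.35), FGFR1 (-0.50) and PDGFRA (-2.16) were called lower in Clone 1, and ERRFI1 was called higher (1.14). EPCAM (1.85), KRT8 (0.75) and PECAM1 (0.89) were higher in Clone 1, and the summed level of the 10 markers of other cell types was 269 to 289 in Clone 3.

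Clone 1 against PC3-N was the pair within the PC3 origin with the most members called, a comparison added after the pairs had been seen. Here 8 members were lower and none higher, against 5.11% of all genes called lower, 8.02% called higher and 13.1% in either direction. DUSP4 fell by 0.73 (SE 0.07, adjusted p = 0.000301), DUSP6 by 0.61 (SE 0.11, 0.00461) and ETV4 by 0.59 (SE 0.13, 0.0125). SPRY2 (-0.65), SPRED1 (-0.59), SPRED2 (-0.56), DUSP5 (-0.40) and ETV5 (-0.31) followed with adjusted p of 0.0318 to 0.0421. SPRY4 differed by -0.76 (adjusted p = 0.0643) and PHLDA1 by -0.07. Without PC3-N replicate 1, Clone 1 replicate 1 or Clone 1 replicate 2, DUSP4 and DUSP6 were the only ones called, and without PC3-N replicate 2 there were 5, DUSP4, DUSP5, DUSP6, ETV5 and SPRY4. With the intensity trend DUSP5 (adjusted p = 0.0505) and ETV5 (0.104) were not called and SPRY4 was (0.0257). Of the further pathway genes SPRY1 (-1.59), ETV1 (-0.99), EPHA4 (-0.72), TRIB1 (-0.68) and PDGFRA (-1.89) were called lower and CBL (0.33) and SOS1 (0.50) higher. EPCAM (1.52) and PECAM1 (0.87) were higher too.

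The members moved together across the lines to different degrees, as a description over 7 line means that share origins. Of the 45 pairs of members, 24 had a Pearson r above 0.8, with a median of 0.82 and a range of -0.24 to 0.97. DUSP4 and ETV4 were the most alike (0.97, and 0.93 over the 5 PC3 lines), and SPRY4 and SPRED2 stayed alike within the PC3 lines (0.95 and 0.92). DUSP6 and SPRED1 had r of 0.94 over all lines and 0.73 within the PC3 origin. Other pairs above 0.8 over all lines were far less alike within the PC3 origin. Examples are SPRED1 and ETV4 (0.87 and 0.23), DUSP6 and ETV4 (0.85 and 0.30) and SPRED1 and SPRED2 (0.83 and 0.32). An r over all lines therefore includes the difference between the origins. ETV5 and PHLDA1 were the least alike (-0.24, and -0.53 within the PC3 origin). Among the 2175 other genes whose line means span at least 1, those with the pattern most like SPRED1 were FBN1 (r = 0.997) and CAMSAP2 (0.994). They were ATG4A (0.994) and HDAC8 (0.984) for DUSP6, NSMCE2 (0.990) and NONO (0.985) for DUSP4, and ARSK (0.990) and ARHGAP31 (0.989) for ETV4. For SPRY4 they were TOP1MT (0.989) and FZD4 (0.985), for SPRED2 PNMA1 (0.990) and TSPAN1 (0.986), and for PHLDA1 GABPA (0.963) and IFI44L (0.961).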

How the data were processed

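Total RNA of 7 lines was measured on 14 arrays. The deposited values were linear intensities processed with RMA by the authors, per the submitters' processing notes, with the version not given in the sources used here. They were turned into log2 with no pseudocount. Of 28829 probe sets, 19291 had exactly 1 symbol, and the probe set with the highest mean stood for each of 18372 genes. All 14 arrays entered 1 fit with limma 3.58.1 under R 4.3.3, with each line's mean as a term and 7 residual degrees of freedom. Tests (lmFit, contrasts.fit, eBayes) were two-sided and were checked on simulated data. The bone-metastatic label was tested with limma on 7 line means. Adjusted p-values are Benjamini-Hochberg over all genes tested, and the number of arrays limits the precision. The arrays of a line come from 2 passages, so p-values measure the spread between passages. The members and gene lists were chosen with earlier results of these data known. All 10 members, PDGFRA, and up to 4 genes of each list per comparison, called ones with the largest difference first, were named, with the 2 genes of highest Pearson r for members spanning at least 1 (log2). Outside that rule, CTNNA1 and uncalled cell type markers were named as checks of the lines, chosen with their values known. Alternatives were quantile normalization, a filter on dim genes, the replicate block, the mean of probe sets, an intensity trend with a robust prior, and leaving out each array. Lines as replicates, leaving out the PDGFRα lines and the comparison of Clone 1 with PC3-N were added after the data were seen. Symbols and promoter windows came from RefSeq tables of GRCh38.p14.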

Additional observations from a re-analysis of the deposited data

How the results depend on the processing

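Over the alternatives run, most results for the members kept their direction and their side of the threshold. The number of members called lower or higher moved by more than 1.5 times in these cases. For PC3-N(PDGFRα) against PC3-N it was 1 after quantile normalization, 2 with the filter on dim genes and 1 with the intensity trend, in place of 0, and 0 to 1 with single arrays left out. Over all genes, 386 of 18372, 502 of 10517 and 421 of 18372 were called in these 3 settings, in place of 405 of 18372. For Clone 3 against PC3-ML it was 5 with the filter on dim genes in place of 3, and 1 to 2 without single arrays. The filter called 1726 of 10517 genes there, in place of 1490 of 18372, so the share over all genes rose too. Counts over all genes without single arrays are not given here. Leaving out single arrays gave 1 to 2 in place of 4 for Clone 1 against PC3-ML and 2 to 5 in place of 8 for Clone 1 against PC3-N. For the PC3 against the DU-145 lines it was 6 with lines as replicates in place of 10, with 3241 genes called in all in place of 7137. ETV5 reversed in that comparison without the PDGFRα lines (-0.036), and the cause was not tested. The filter leaves fewer genes to adjust over.

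The replicate numbers of the labels were not used to pair the arrays in the main fit. Over the 21 pairs of lines the replicate differences correlated at -0.20 to 0.24 (median 0.04), and 6 pairs were above 0.1. Whether some lines share a replicate effect was not tested. With the replicate block, 10 members were called in the F test (6829 of 18372 genes) and 10 between the origins (7143 genes). There were 4 in Clone 1 against PC3-ML (2493 genes) and 4 in Clone 3 against PC3-ML (1443). Between the clones there were 4 (1880 genes), and in Clone 1 against PC3-N 8 (2437). The comparisons of PC3-ML with PC3-N and of the PDGFRα lines had 0 members called. The genes called in DU-145 (PDGFRα) fell from 57 to 10 with the block and were 100 with the intensity trend and 86 with the filter on dim genes, with 0 members among them each time. In PC3-ML against PC3-N, 64 genes became 42 with the block and 116 with the filter. Values near the array median limit DUSP4, DUSP6, ETV4 and SPRY4 in the DU-145 lines.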
